A study of Mus musculus with 12 samples.

Results

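The choroid plexus epithelium genes are 40 symbols, from Ttr to Slc5a5, named as genes of the secretory epithelium that lines the choroid plexus of the brain ventricles. All 40 were present among the 24421 gene symbols counted in each library, and 38 passed the filter on low counts, which left 14564 genes in all. They were measured in polyribosomal RNA, the RNA pelleted through a sucrose cushion with ribosomes, from the hippocampus of C57/Bl6 mice aged 6 weeks. The libraries form 2 groups of 6, labelled control and fear case, and no allele or drug is named for either. One protocol text stands for all 12 libraries: mice were housed singly, spent 8 min in a context new to them then returned to the home cage for 7 min, with the hippocampus collected at 15 min. The labels say neither how the control mice were handled differently nor that each library came from its own mouse, so an error here measures the spread between libraries. The members were chosen by name, with their CPM values in these 12 libraries and the results of this same comparison known, so the values describe them, and the counts of members past a threshold are no support for the choice.

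The choroid plexus epithelium makes cerebrospinal fluid. Water and ions pass from blood to ventricle through apical and basolateral channels, exchangers and carbonic anhydrases, a belt of tight junctions closes the space between the cells, and the cells secrete carrier proteins into the fluid, with transthyretin the best known. The plexus hangs in the ventricles beside the hippocampus. Not all members are specific to its epithelium: Enpp2, Trpm3 and Slc29a4, among others, are also expressed by neurons or glia.

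The gene counts of a library ranged from 18.6 M to 44.2 M with a median of 21.6 M, and fear case 6 was the deepest. In that library Rn45s, the ribosomal RNA precursor, took 12.5% of the counts, against 4.55% to 7.98% in the others. Levels are given as CPM, counts divided by the TMM-scaled library size and given per 1e+06. Fear case 6 also stood apart from the other fear case libraries for the members. Its levels of Fos and Npas4, activity-induced transcription factor genes, were 21.2 and 20.4 CPM, inside the fear case range (12.1 to 33.7 and 17.5 to 28.9 CPM) and above all controls (2.29 to 6.83 and 3.87 to 7.23 CPM). Results are therefore given with and without it. Markers of the labelled tissue were present: the summed level of 8 hippocampal neuron markers, led by the kinase gene Camk2a, was 3208 to 3674 CPM in controls and 3327 to 3534 CPM in fear case.

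In controls the members' summed level was 1437 to 3442 CPM. It was 861 CPM in fear case 1, 314 in fear case 2, 422 in fear case 3, 306 in fear case 4, 677 in fear case 5 and 2672 in fear case 6. The first 5 fear case libraries thus lay below every control, and the sixth lay inside the control range. In bulk RNA, fewer cells of a type and less RNA per cell cannot be told apart. Of the 38 tested members, 32 lay below the lowest control in fear case 1, 33 in fear case 2, 33 in fear case 3, 34 in fear case 4 and 29 in fear case 5, but 2 in fear case 6, where 3 lay above the highest control.

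The members lie on many chromosomes (GENCODE vM21, GRCm38), among them Enpp2 at chr15:54838901-54952892, Kl at chr5:150952607-150993817, Clic6 at chr16:92485736-92541243 and Otx2 at chr14:48657677-48673819.

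**Figure D1:**
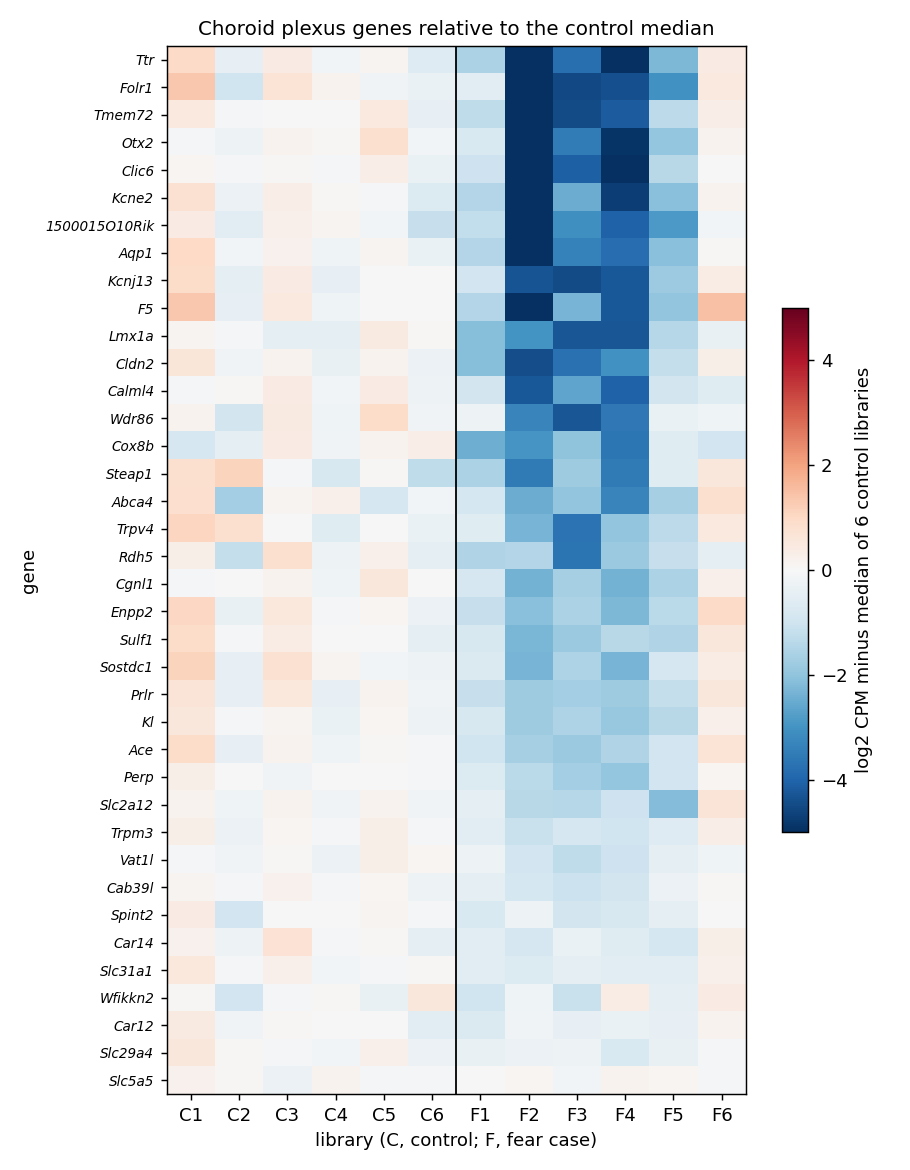
Level of the 38 tested members (rows) in the 12 libraries (columns; C, control; F, fear case), as log2 CPM minus the median of the 6 controls. Blue fills most rows of fear case 2, 3 and 4, is paler in fear case 1 and 5 and is nearly missing in fear case 6, and the bottom row, Slc5a5, is almost blank throughout.

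The comparison of fear case with control was fitted over all 14564 genes with edgeR's quasi-likelihood test. The log2 fold change, fear case minus control, was negative for 37 of the 38 tested members, where 51.4% of all genes tested were negative. The median over the tested members was -1.10, beside -0.0046 over all genes. No member passed an adjusted p of 0.05 with edgeR: 0 of 38 were called lower and 0 higher, against 0.0549% and 0.0481% of all genes. DESeq2's Wald test called 2 and limma-voom 0, and with edgeR 31 of 38 had an unadjusted p under 0.05 with a lower value (4.52% of all genes). For 26 of the 38, at least 5 of 6 fear case libraries lay below every control (1.84% of all genes), and for 1 of these, Calml4, all 6 did (0.33% of all genes). Without fear case 6 the fit called 29 of 38 members lower and 0 higher, against 0.791% and 0.0818% of the genes tested, and the median was -1.79. This contrast was in view when the members were chosen, and fear case 6 was set apart in part by its levels of these same members. Nothing is therefore read from these counts, with or without that library. Each of the other libraries left out in turn gave 0 or 1 called members.

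Among the secreted proteins, all 9 tested members had a negative log2 fold change, with a median of -0.98. Ttr, which encodes transthyretin, the carrier of thyroxine and retinol-binding protein in the fluid, stood at 1978, 761, 1326, 911, 1110 and 641 CPM in control 1 to 6. Its levels in fear case 1 to 6 were 335, 7.41, 73.5, 7.96, 210 and 1319 CPM. Fear case 2 and 4 thus held 0.733% and 0.788% of the control median of Ttr, while fear case 6 held 131%, and the groups overlapped through that library alone. Its log2 fold change was -1.78 (SE 0.74), and -3.14 (SE 0.64) without fear case 6. Ttr also had the highest level per length, at 945 CPM per kb of exon in controls, against 66.7 for Enpp2, the next.

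Enpp2 encodes autotaxin, a secreted enzyme that makes lysophosphatidic acid, and is also expressed by oligodendrocytes. It stood at 665, 253, 468, 307, 351 and 267 CPM in the controls and at 148, 77.5, 109, 69.4, 128 and 645 CPM in fear case 1 to 6. The same 5 libraries lay below every control, but the lowest, fear case 4, still held 21.1% of the control median. The log2 fold change was -0.97 (SE 0.40), and -1.86 (SE 0.22) without fear case 6. The ratio of Ttr to Enpp2 counts was 2.40 to 3.16 in the controls and 2.04 in fear case 6. It was 2.26 in fear case 1, 1.64 in fear case 5, 0.676 in fear case 3, 0.115 in fear case 4 and 0.0956 in fear case 2. The measured levels of Ttr and Enpp2 thus did not keep one proportion across libraries. How much of the Enpp2 level came from oligodendrocytes was not tested. Set against Clic6, a chloride channel member, Ttr counts were 17.8 to 41.6 times as high among controls. For fear case 1 to 6 this second ratio was 15.4, 12, 28.7, 6, 12.4 and 28.9. Ttr made up 44.6% to 57.5% of the members' summed counts in controls and 2.36% and 2.60% in fear case 2 and 4.

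F5, the coagulation factor V gene, stood at 9.30 to 31.0 CPM in controls, 0.247 to 4.43 CPM in fear case 1 to 5 and 34.2 CPM in fear case 6, above all controls. 1500015O10Rik, the gene of the secreted peptide augurin, ranged from 3.20 to 9.63 CPM in controls and was down to 0.0412 CPM in fear case 2. Sostdc1, a secreted BMP and Wnt antagonist, and Sulf1, which trims heparan sulphate outside the cell, kept 18.8% and 19.9% of their control medians in fear case 2. Ace, the angiotensin-converting enzyme gene, stood at 40.8, 16.4, 24.8, 18.8, 22.8 and 20.9 CPM in controls and at 10.8, 6.87, 5.97, 7.61, 11.3 and 34.7 CPM in fear case. Fear case 1 to 5 lay below all controls, and fear case 6 inside their range.

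For Spint2 and Wfikkn2 the groups overlapped more. Spint2, a serine protease inhibitor, stood at 11.2, 4.30, 8.25, 8.39, 9.17 and 7.72 CPM in the controls and at 4.81, 6.92, 4.40, 4.73, 6.04 and 8.43 CPM in fear case. No fear case library lay below all controls, since control 2 was the lowest of the 12. Wfikkn2, which encodes a secreted binder of growth differentiation factors, stood at 1.07, 0.478, 0.979, 1.06, 0.764 and 1.55 CPM in controls and at 0.468, 0.864, 0.419, 1.33, 0.721 and 1.40 CPM in fear case, with 2 fear case libraries just below all controls.

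Of the receptors, Kl encodes klotho, the co-receptor of FGF23 in kidney and choroid plexus. It stood at 72.3, 45.8, 54.1, 38.9, 52.9 and 40.8 CPM in controls and at 28.5, 14.2, 17.0, 13.2, 18.8 and 58.9 CPM in fear case, so that fear case 1 to 5 lay below all controls and fear case 6 between the highest pair. Its log2 fold change without fear case 6 was -1.47 (SE 0.17). Prlr, the prolactin receptor gene, stood at 28.4, 13.8, 26.3, 13.9, 20.8 and 16.1 CPM in controls and at 8.09, 5.27, 5.55, 5.26, 8.02 and 27.2 CPM in fear case. The lowest libraries kept 26.7% of the control median of Kl and 28.5% of that of Prlr. Folr1, the folate receptor that carries folate into the fluid, went lower: it had 2.66 to 13.8 CPM in controls, 0.157 CPM in fear case 3, 0.177 in fear case 4 and no count in fear case 2, where 3 counts, the limit that a count of 0 allows, would be 0.123 CPM. Its value in fear case 1, 3.62 CPM, overlapped the controls. Mfrp, a frizzled-related membrane protein gene, had no count in any library. Its exons share 1589 bases with C1qtnf5 on the same strand, and C1qtnf5 had no count either.

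**Figure D2:**
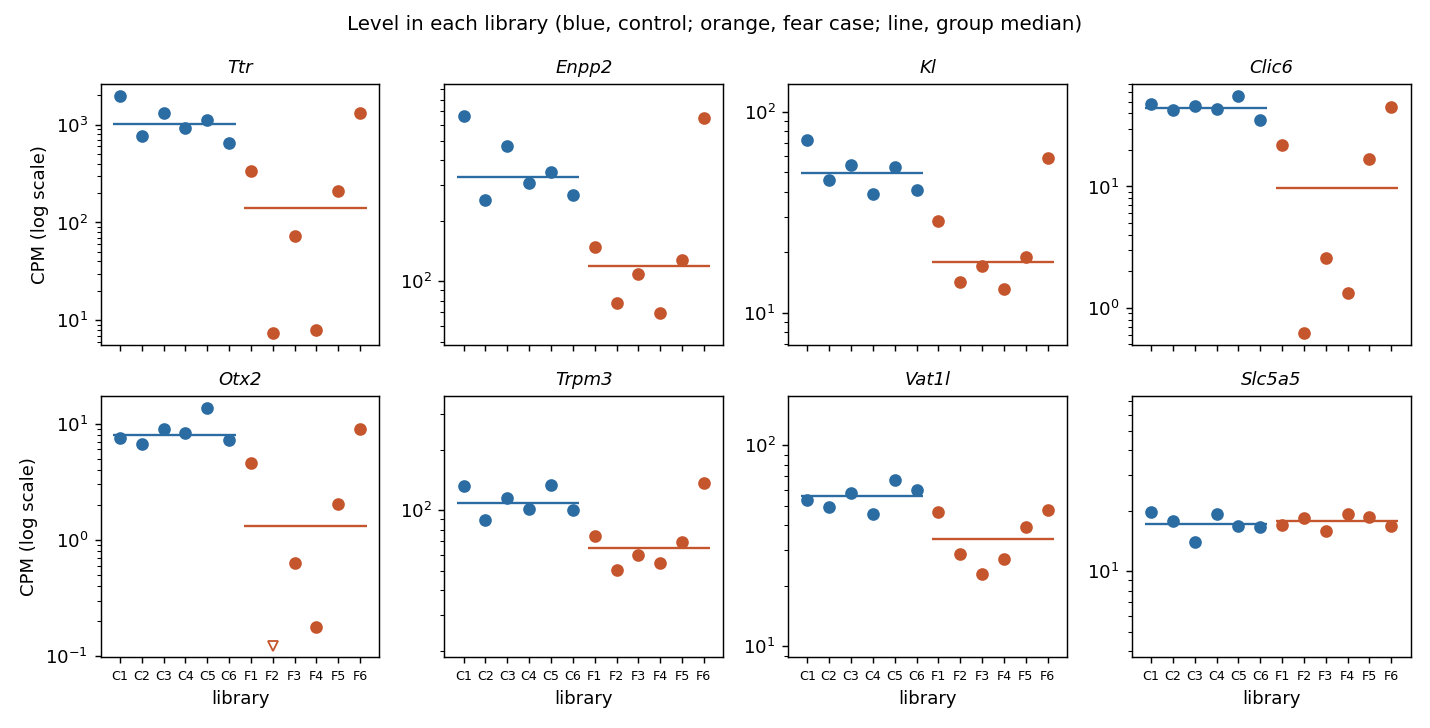
CPM (log scale) of 8 members in each of the 12 libraries; each point is 1 library, lines are group medians, and the open triangle marks a level under that of 3 counts, drawn at that level. Ttr runs from 7.41 to 1319 CPM in fear case and Clic6 from 0.617 to 45.6 CPM, while Trpm3 runs from 50.3 to 136 CPM and Slc5a5 overlaps between groups.

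All 6 channel genes lay below every control in at least 5 fear case libraries. Clic6, a chloride intracellular channel protein, varied little among controls, at 47.6, 42.7, 46.0, 43.4, 56.2 and 35.2 CPM. In fear case it stood at 21.8, 0.617, 2.56, 1.33, 16.9 and 45.6 CPM. Fear case 1 and 5 were intermediate, fear case 2, 3 and 4 held 1.38%, 5.74% and 2.97% of the control median, and fear case 6 sat at it (102%). The log2 fold change was -1.57 (SE 0.54), and -2.38 (SE 0.49) without fear case 6. Aqp1, the apical water channel, stood at 2.33 to 5.96 CPM in controls and had no count in fear case 2. Kcnj13, the inward-rectifier potassium channel Kir7.1, and Kcne2, a beta subunit of potassium channels, stood at 4.57 to 12.3 and 7.19 to 19.3 CPM in controls and at 0.265 and 0.354 CPM in fear case 4. Trpv4, an osmosensitive cation channel, was at 1.96 to 6.57 CPM in controls and 0.157 to 1.96 CPM in fear case 1 to 5. Its highest value among those 5, 1.958 CPM in fear case 1, nearly tied with the lowest control, 1.960 CPM in control 4.

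Trpm3, a heat- and steroid-gated cation channel that neurons also express, differed by less. It stood at 132, 89.2, 116, 102, 134 and 100 CPM in controls and at 74.8, 50.3, 59.9, 54.5, 69.2 and 136 CPM in fear case. Again fear case 1 to 5 lay below all controls and fear case 6 above them, but the lowest library kept 46.3% of the control median.

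Among the solute carriers and carbonic anhydrases, whose 6 tested members had a median log2 fold change of -0.46, most levels overlapped between groups. Slc29a4, a monoamine transporter also found in neurons, stood at 33.3, 22.9, 21.5, 20.1, 26.4 and 18.01 CPM in controls and at 17.1, 18.3, 18.7, 13.002, 17.4 and 21.1 CPM in fear case, with 3 fear case libraries below all controls. Car12, a membrane carbonic anhydrase, stood at 25.6, 16.9, 19.6, 18.6, 19.2 and 12.7 CPM in controls and 11.5, 16.9, 14.2, 14.9, 14.3 and 21.3 CPM in fear case, with 1 library below all controls. Car14, another carbonic anhydrase, kept 54.2% to 78.1% of its control median in fear case 1 to 5. The exceptions were Slc31a1, the copper importer, and Slc2a12, a glucose transporter, in which 5 fear case libraries lay below every control, with 61.6% to 72.2% and 20.9% to 71.4% of the control median left in them. Slc16a8, a lactate transporter of epithelia, had 0.146 to 1.68 CPM in controls and up to 0.224 CPM in fear case, and did not pass the filter.

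Slc5a5, the sodium iodide symporter gene, was the one tested member without a negative value. It stood at 19.8, 17.7, 14.03, 19.4, 16.8 and 16.6 CPM in controls and at 17.0, 18.4, 15.8, 19.3, 18.7 and 16.7 CPM in fear case, inside the control range, with a log2 fold change of 0.02 (SE 0.10). Fear case 2 and 4, where Ttr was under 1% of the control median, held 107% and 112% of that of Slc5a5. Its level thus stayed near the control median in the libraries where most members were lowest.

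All 4 junction and apical genes lay below every control in at least 5 fear case libraries. Calml4, a calmodulin-like protein of brush borders, stood at 15.6, 16.6, 21.3, 14.8, 21.6 and 13.6 CPM in controls and 8.60, 0.782, 2.51, 0.885, 8.48 and 10.7 CPM in fear case. It was the one member whose groups did not overlap, since fear case 6 too lay below all controls. Its log2 fold change was -1.67 (SE 0.40), and -2.02 (SE 0.40) without fear case 6. Cgnl1, which encodes the junction protein paracingulin, stood at 16.6, 17.6, 19.6, 14.8, 25.2 and 16.9 CPM in controls and 9.66, 3.29, 5.44, 3.32, 5.68 and 20.4 CPM in fear case. Cldn2, a claudin that forms cation and water pores, stood at 4.12 to 8.15 CPM in controls and 0.165 to 2.30 CPM in fear case 1 to 5. Perp, a desmosome protein, kept 24.7% to 62.2% of its control median in those 5 libraries.

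Both transcription factors lay below every control in 5 fear case libraries. Otx2, the homeobox factor required for choroid plexus development and upkeep, stood at 7.49, 6.64, 9.04, 8.34, 13.7 and 7.23 CPM in controls and at 4.60, 0, 0.628, 0.177, 2.03 and 8.95 CPM in fear case. Lmx1a, a LIM homeobox factor of the roof plate from which the plexus forms, stood at 1.78, 1.54, 1.12, 1.11, 2.20 and 1.65 CPM in controls and at 0.298, 0.123, 0, 0, 0.541 and 1.20 CPM in fear case. In both genes the groups overlapped through fear case 6, and 3 counts would be 0.157 CPM in fear case 3 and 0.133 CPM in fear case 4. The log2 fold changes were -1.61 (SE 0.57) for Otx2 and -1.98 (SE 0.58) for Lmx1a. Without fear case 6 they were -2.54 (SE 0.53) and -2.97 (SE 0.58), and with limma-voom on all libraries -3.19 and -3.18.

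The members' promoters were searched for the OTX2-type core, TAATCC on either strand, in the 250 bases before each RefSeq start site (GRCm38.p6). Windows were found for 32 of the 40 members, and 6 of these (18.8%) held a match, beside 7.21% of the 27025 genes with a window. A match is a run of letters, not a bound site. The members with a match were Ace, Car14, Abca4, Vat1l, Mfrp and Otx2. Otx2 kept 2.23% of its control median in fear case 4, but its matching window lies wholly within annotated exons and is not printed. Mfrp had no count in any library. The windows of the other 4 are printed because their levels in fear case 4 were far apart. Among the 4, Abca4 was the lowest and Car14 the highest as a share of the control median. Each printed window runs 5′ to 3′ on the gene's own strand and stops at the first annotated exon base, with the match in capitals (GGATTA is TAATCC on the opposite strand).
Ace, chr11:105967698-105967944, plus strand, match starting 27 bases before the start site: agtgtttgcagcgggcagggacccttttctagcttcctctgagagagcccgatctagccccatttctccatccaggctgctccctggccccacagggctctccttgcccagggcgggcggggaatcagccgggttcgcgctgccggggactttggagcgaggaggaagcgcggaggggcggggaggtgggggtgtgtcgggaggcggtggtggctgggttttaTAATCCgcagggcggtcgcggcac
Car14, chr3:95904692-95904935, minus strand, match starting 61 bases before: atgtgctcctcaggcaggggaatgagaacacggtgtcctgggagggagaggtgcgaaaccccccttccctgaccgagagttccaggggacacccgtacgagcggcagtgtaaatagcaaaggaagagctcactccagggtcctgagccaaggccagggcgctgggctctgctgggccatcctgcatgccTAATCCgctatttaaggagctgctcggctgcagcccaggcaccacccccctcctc
Abca4, chr3:122044210-122044442, plus strand, match starting 58 bases before: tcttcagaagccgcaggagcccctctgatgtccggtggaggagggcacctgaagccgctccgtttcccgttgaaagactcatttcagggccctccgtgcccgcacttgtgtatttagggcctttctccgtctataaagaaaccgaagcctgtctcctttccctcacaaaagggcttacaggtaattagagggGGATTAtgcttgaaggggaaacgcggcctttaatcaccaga
Vat1l, chr8:114205390-114205611, plus strand, match starting 79 bases before: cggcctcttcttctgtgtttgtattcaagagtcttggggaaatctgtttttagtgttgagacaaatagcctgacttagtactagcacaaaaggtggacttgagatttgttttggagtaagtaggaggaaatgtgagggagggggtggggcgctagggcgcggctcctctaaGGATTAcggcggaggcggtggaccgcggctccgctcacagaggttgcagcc

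In fear case 4 these genes kept 34.8% (Ace), 66.0% (Car14), 8.87% (Abca4) and 48.9% (Vat1l) of the control median, so genes with a match differed widely in that share. Kcne2, at 3.08% in the same library, has these letters in neither of its windows, which says nothing of the factor.

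The members of retinoid, metal and mitochondrial metabolism had low levels in controls too. Abca4, a retinoid flippase best known from photoreceptors, stood at 10.8, 1.75, 6.53, 7.14, 3.33 and 5.44 CPM in controls and 3.19, 0.988, 1.47, 0.531, 1.85 and 10.4 CPM in fear case. Rdh5, a retinol dehydrogenase, stood at 4.48, 1.54, 6.34, 3.02, 4.36 and 2.67 CPM in controls and 1.23, 1.28, 0.209, 0.929, 1.58 and 2.57 CPM in fear case. In Rdh5 the groups overlapped through control 2 alone, and in Abca4 through control 2 and fear case 6. Steap1, a metalloreductase family gene, and Cox8b, a subunit of cytochrome c oxidase, averaged 1.09 ± 0.69 and 1.51 ± 0.518 CPM in controls (SD, n = 6) and 0.412 ± 0.539 and 0.406 ± 0.379 CPM in fear case (SD, n = 6). Cox8b was, with Calml4, one of the 2 members below all controls in fear case 6, at 0.748 CPM.

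Cab39l and Vat1l had higher levels than these in every library, and kept 52.7% and 48.9% of the control median in fear case 4. Cab39l, a scaffold of the LKB1 kinase complex, stood at 66.9, 58.1, 70.7, 57.6, 64.9 and 52.1 CPM in controls and at 44.4, 33.0, 29.5, 32.4, 50.3 and 64.5 CPM in fear case. Vat1l stood at 53.6, 49.6, 57.8, 45.4, 67.6 and 59.7 CPM in controls and at 46.8, 28.9, 22.9, 27.2, 39.4 and 47.8 CPM in fear case. In Vat1l fear case 1 and 6 overlapped the controls and the other 4 did not. Tmem72 and Wdr86 went much lower: Tmem72 had no count in fear case 2, and Wdr86 kept 7.97%, 2.89% and 6.12% of the control median in fear case 2, 3 and 4 but 83.6% and 78.6% in fear case 1 and 5.

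**Figure D3:**
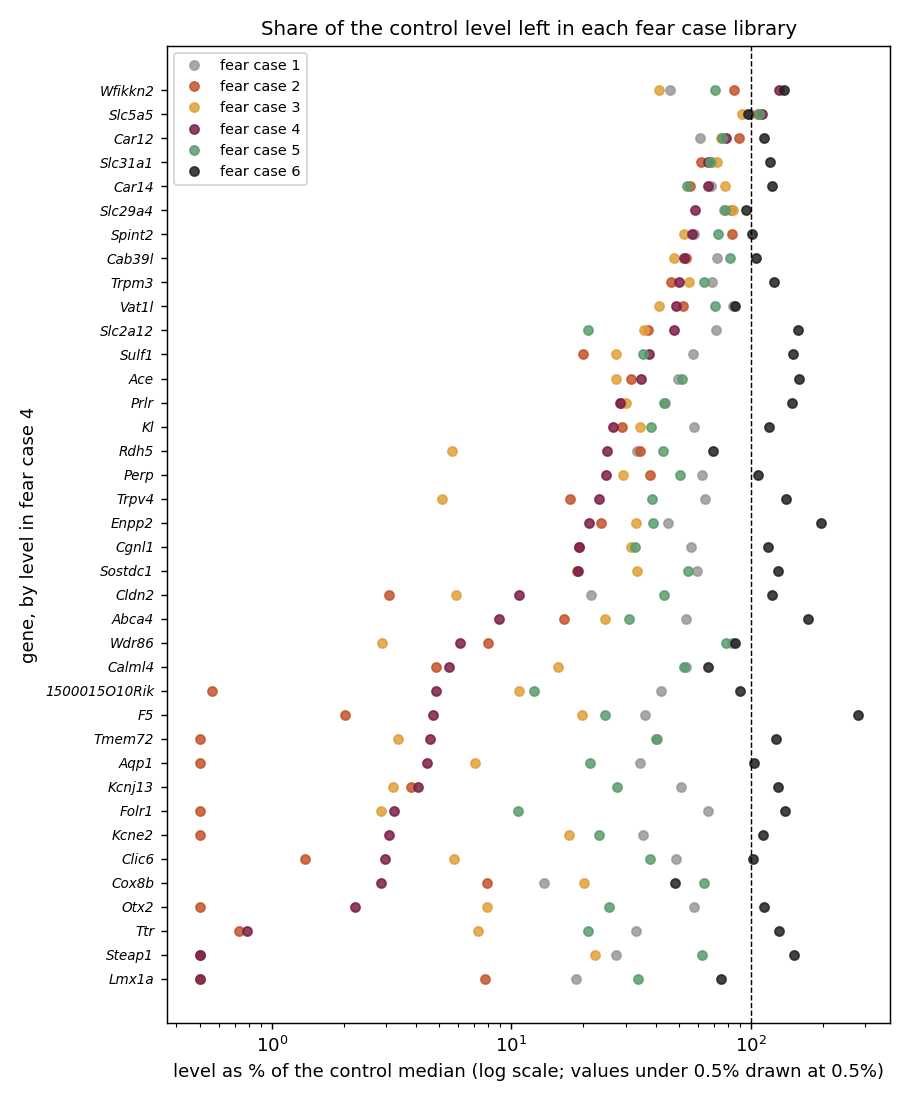
Level of each tested member (rows, ordered by fear case 4) as a percentage of its control median in the 6 fear case libraries (log scale; values under 0.5%, counts of 0 included, are drawn at 0.5%). The members spread from 0 for Lmx1a and Steap1 to 130% for Wfikkn2 in fear case 4, while fear case 6 (black) lies near or above 100% for most.

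Across the members the share left in the low libraries thus spread widely. In fear case 2, 16 of the 38 tested members were under 10% of their control median and 9 were over 50%. The counts were 12 and 7 in fear case 3, 16 and 9 in fear case 4, 0 and 22 in fear case 1, 0 and 17 in fear case 5 and 0 and 37 in fear case 6. Controls differed too: control 1 was above all other controls in 23 of 38 members, and control 2 and control 6 below all others in 15 and 13. The highest control exceeded the lowest by 6.25 times for Steap1, 6.16 for Abca4, 5.20 for Folr1 and 3.08 for Ttr, but by 1.60 for Clic6, 1.38 for Perp and 1.35 for Slc2a12. Clic6 and Ttr, both under 3% of control in fear case 4, thus differed in how far they varied among controls.

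The other choroid plexus genes, 30 transporters, receptors, keratins and growth factor genes, were listed apart from the members. With edgeR's quasi-likelihood test 3 of the 26 tested fell and 0 rose, against 0.0549% and 0.0481% of all genes. A negative log2 fold change was found for 25 of the 26, against 51.4% of all genes, and the median was -0.65. Against the members' median this difference was not tested. The homeobox gene Msx1 fell, with a log2 fold change of -1.36 (SE 0.22) and an edgeR adjusted p of 0.00700, and so did the bicarbonate exchanger gene Slc4a2, at -0.75 (SE 0.15, adjusted p = 0.0483), with all 6 fear case libraries of Msx1 below all controls. Igf2, a growth factor gene of plexus and meninges, its binding protein gene Igfbp2 and the cell cycle inhibitor gene Cdkn1c had log2 fold changes of -0.88, -0.99 and -1.10 and did not pass (adjusted p = 0.180, 0.251 and 0.237). Without fear case 6, 11 of 26 were called lower, against 0.791% of the genes tested. Slc4a10, Slc23a2 and Slc12a2, at a mean of 207, 71.4 and 60.1 CPM in controls, had log2 fold changes of -0.03 each with all libraries.

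The genes outside the list whose centred log2 profile over the 12 libraries was nearest to the members' mean profile were sought among the 10902 non-members averaging 5 CPM or more. The nearest was Mdfic, a regulator of transcription factors, with a root-mean-square difference of 0.33 log2 units. It was followed by Drc7, a dynein regulatory complex gene, at 0.37, Epn3, an endocytic adaptor gene, at 0.40, Igfbp2 at 0.48 and Cdkn1c at 0.50. Col9a3, Slc13a4, Msx1, Cdr2 and Igf2 completed the first 10, at up to 0.57. Drc7 stood at 18.2 to 27.2 CPM in controls, 1.86 to 9.87 CPM in fear case 1 to 5 and 22.3 CPM in fear case 6. Among the members themselves Sostdc1 was nearest to the mean profile, at 0.29, and Ttr farthest, at 1.59.

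Markers of other cells were set beside these values. Ependymal and ciliated cells, which line the ventricles next to the plexus, had a summed level over 18 markers of 82.1 to 101 CPM in controls and 60.0 to 74.4 CPM in fear case. Here fear case 6 lay below all controls as well, at 74.4 CPM. With all libraries 1 of 17 tested markers fell, against 0.0549% of all genes. It was the ciliary microtubule gene Tekt1 (log2 fold change -1.02, SE 0.20, adjusted p = 0.0483 with edgeR). The most abundant pair, Ccdc39 and Rsph1, had log2 fold changes of -0.00 and -0.79 (edgeR adjusted p = 0.997 and 0.179). Ccdc153, Sntn and Tekt4 had positive values, 0.12, 0.42 and 0.11. With edgeR 6 of the 17 had an unadjusted p under 0.05 and a lower value (4.52% of all genes). A negative log2 fold change was found for 14 of the 17 (51.4% of all genes). Without fear case 6 the edgeR fit called 5 of the 17 lower, against 0.791% of the genes tested, namely Tekt1, Rsph4a, Foxj1, Pifo and Rsph1. Rsph1 then stood at -0.91 on the log2 scale, with an edgeR adjusted p of 0.0245. The part of these cells in the members' levels was not tested.

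Stromal and leptomeningeal markers, led by Dcn and Col1a1, summed to 45.5 to 80.0 CPM in controls and 50.5 to 85.2 CPM in fear case, and endothelial markers, led by Plvap and Slco1a4, to 21.6 to 28.8 and 17.8 to 30.9 CPM. In both, the ranges overlapped, and edgeR called 0 of 11 and 0 of 9 tested, with 0 and 1 at an unadjusted p under 0.05. The log2 fold change was negative for 10 of the 11 and 7 of the 9 (51.4% of all genes), with medians of -0.17 and -0.07. The 8 oligodendrocyte markers summed to 1987 to 2696 CPM in controls and 1799 to 2726 CPM in fear case, and thalamus and habenula markers, led by Nwd2 and Prkcd, to 90.7 to 120 and 93.1 to 111 CPM. Astrocyte markers, led by Slc1a2 and Aldoc, summed to 1594 to 2130 CPM in controls and 1525 to 2493 CPM in fear case, the highest being fear case 6 and, among controls, control 1. Of 8 markers in each of these lists edgeR called 0, with 1, 1 and 0 at an unadjusted p under 0.05 in the order given. Negative values were found for 7, 5 and 5 of the 8, in the same order. The part of these cells in the members' levels was not tested either. Of the blood markers, 4 globin genes had no count in any library and Alas2 stood at 1.06 to 5.63 CPM in controls and 1.19 to 5.62 CPM in fear case.

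**Figure D4:**
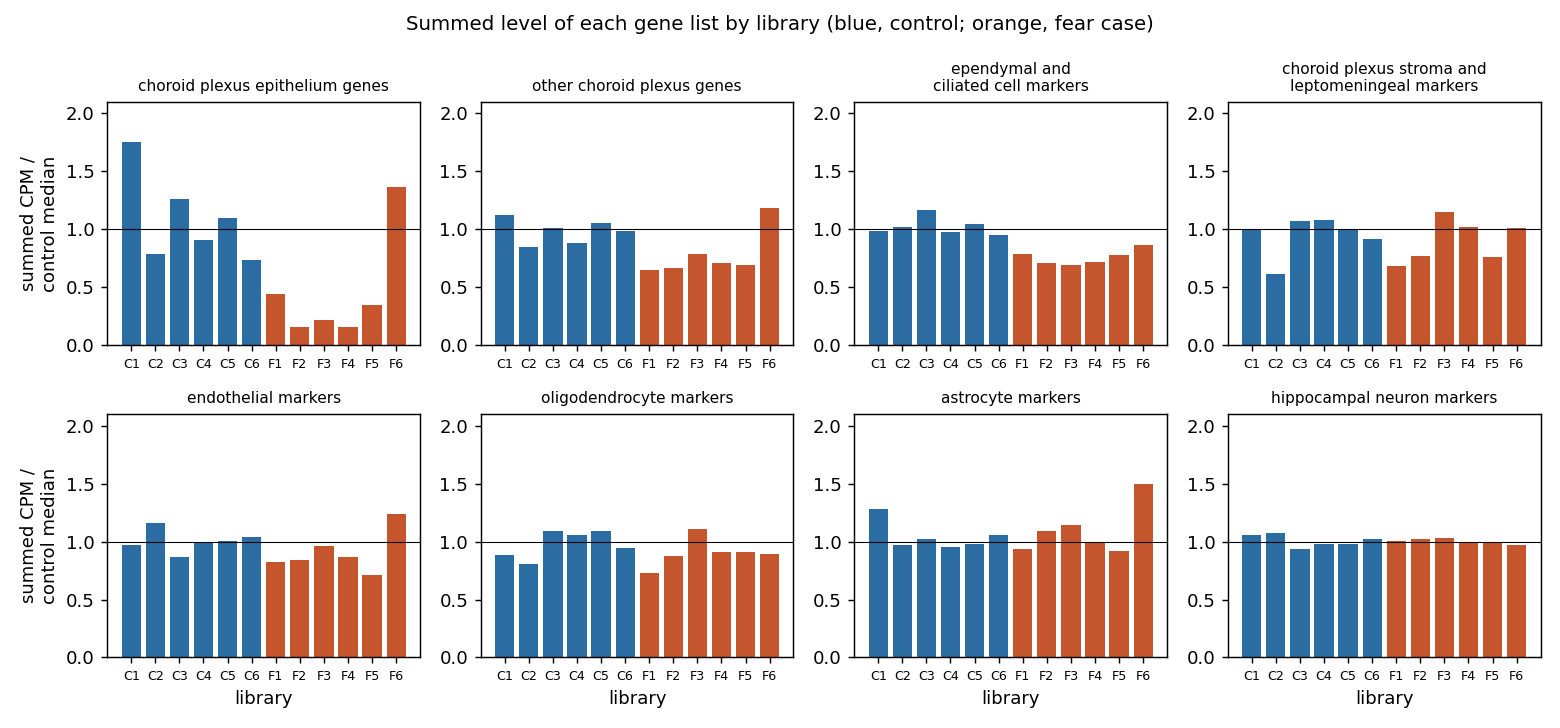
Summed CPM of 8 gene lists in each library, divided by the median of the 6 controls (bars from 0; blue, control; orange, fear case). The members range from 306 to 3442 CPM over the 12 libraries, the ciliated cell markers are below all controls in all 6 fear case libraries, and the hippocampal neuron markers are nearly level.

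The strand setting of the counting is not known here, and exons of 9 members overlap those of another counted gene. For Kcnj13 the overlap is 623 of 1270 exonic bases, with Gigyf2 on the opposite strand, and for Otx2 it is 154 bases with Otx2os1. For Rdh5, a member called by DESeq2's Wald test, it is 720 of 2809 bases, with Bloc1s1 on the same strand. Reads there may have been set aside or counted to either gene.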

How the data were processed

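For each library the authors deposited a list of gene symbols with raw counts, made with cutadapt, TopHat, Bowtie and HTSeq on genome build mm10, per the submitters' processing notes; the sources used here give no versions, annotation or strand setting. Lines summarising unassigned reads were kept out of library sizes: 25.5% to 33.3% were assigned to no counted feature and 0.453% to 0.55% were ambiguous. Reads in introns and reads between genes are not told apart by the first of these shares. A further line gave 67.8 M to 115 M alignments per library that were not unique, the most in fear case 6. Per the labels' protocols, total RNA libraries were made from the cushion pellet, and no input RNA was analysed here.

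The 6 control and 6 fear case libraries were compared in R 4.3.3 with edgeR 4.0.16: filterByExpr (minimum count 10, minimum total 15), TMM, quasi-likelihood test without covariates, Benjamini-Hochberg adjustment over 14564 genes, calls at 0.05. Each SE was taken from the fold change and the square root of its F value. Log2 CPM used a prior count of 2. The limit of 3 counts for a count of 0 covers counting error only; at the median depth of 21.6 M, 1 CPM is about 21.6 counts. DESeq2 1.42.0 and limma 3.58.1, other scalings, no filter, a replicate block and leaving out each library were the alternatives.

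The members, the marker lists and the naming rule were chosen with earlier results of these data known. By that rule, values in every library are given for the 10 members with the highest control CPM, the 2 highest of each role group and the 5 with a log2 fold change nearest 0. Of the other choroid plexus genes, those with the lowest p are named, and of the cell type lists the most abundant 2. Single values of other members, and Drc7, Tekt1, the genes with printed promoters and the list genes given for values near or above 0, were picked after their values were seen. One called gene and the names of the leading oligodendrocyte markers are not reported here. Exon lengths and positions are from GENCODE vM21 (GRCm38, the assembly of mm10), which held 23376 of 24421 symbols and all 40 members. The test was tried on simulated data of 14564 genes, with 50 randomly drawn genes changed at each fold. Each changed gene was raised or lowered by that fold, with the direction drawn at random. The test recovered 68% of those changed by a fold of 1.5, 86% at 2 and 98% at 3. It also called 6 unchanged genes. No outlying library was simulated, so these shares do not give the recovery to be had for the members.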

Additional observations from a re-analysis of the deposited data

Results flagged for a closer look

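Within groups of 6, the highest or lowest library was set against the others by the gap to its nearest neighbour as a share of the group's range, with Dixon's 95% critical value as the threshold. For normally distributed values, chance passes about 1 in 20 groups. The values here were CPM without a log, for which that share may not hold. Of 78 groups of member values with any spread, 22 passed, and 18 of these were fear case 6 standing high. The gap in fear case was 0.75 for Ttr, 0.863 for Enpp2, 0.635 for Sostdc1, 0.877 for F5, 0.711 for Sulf1, 0.815 for Ace, 0.665 for Kl and 0.872 for Prlr. It was 0.667 for Aqp1, 0.685 for Kcne2, 0.715 for Trpm3, 0.629 for Slc2a12, 0.819 for Slc31a1 and 0.65 for Car14. For Cldn2 it was 0.665, for Cgnl1 0.628, for Abca4 0.73 and for Tmem72 0.68. The members share libraries, so these are not independent.

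Among controls the gap was 0.626 for F5, 0.656 for Ace and 0.679 for Aqp1, each with control 1 standing high. It was 0.658 for Otx2, with control 5 standing high.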

How the results depend on the processing

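Over the 19 alternatives run, 36 of 38 tested members kept a negative log2 fold change in all of them. Wfikkn2 reached 0.01 without control 6, and Slc5a5 ranged from -0.03 to 0.07. The median over members was -0.92 to -1.79 with one library left out, and the count of members with at most 1 fear case library not below every control was 25 to 31 over all alternatives run for it. With library totals unscaled, 33 genes were called in place of 15, and 1 member, Vat1l. Without a filter on low counts, 37 genes and 2 members, Calml4 and Vat1l, were called, and with DESeq2's Wald test 59 genes and 2 members, Rdh5 and Cox8b. With limma-voom the log2 fold changes of Folr1, Otx2, Lmx1a and Tmem72 were -3.31, -3.19, -3.18 and -3.12. The cause was not tested. With one library left out, 9 to 128 genes, 0 to 29 members and 1 to 11 other choroid plexus genes were called; the highest of each came without fear case 6, and the lowest for the other choroid plexus genes without control 3 or fear case 2.

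Same-numbered libraries did not deviate together over all genes (correlation -0.171 to 0.0468 over 6 pairs). A pairing whose effect is small beside the spread between libraries would not show in this, so whether the numbers pair the samples stays undecided. With the replicate number as a block, the members' median was -1.47, the log2 fold change of Ttr was -3.60, and 1 member (Vat1l) and 18 genes were called.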
